A study of Arabidopsis thaliana with 8 samples.

Results

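The H3K4me3 landscape of Arabidopsis leaf was described as the leaf anti-H3K4me3 ChIP-seq library set against the leaf anti-H3 library, interval by interval over the nuclear genome. The study profiled chromatin of leaf and of a suspension cell culture of Arabidopsis thaliana by ChIP-seq, the sequencing of DNA immunoprecipitated with an antibody, with 4 antibodies and 8 libraries in all. The 2 libraries described here are leaf H3K4me3 and leaf H3, both from leaf tissue of wild-type plants of the ecotype Col-0, raised on plates of MS agar. They were taken over 109970 nuclear intervals of 109972 in the files, namely 27213 protein-coding genes, 177 miRNA genes, 4 rRNA genes, 31189 transposable elements and 51387 intergenic intervals. The culture, used in 1 check below, is a Col-0 cell line kept with the synthetic auxin 2,4-D. Plant age is not given in the labels, and the fixation step there is written for the culture alone. Leaf H3K27me3 and leaf H3K9me2, 1 library each from the same tissue, were used as further readouts.

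H3K4me3 is trimethylation of lysine 4 on histone H3. In plants it is set by COMPASS-like complexes, lies over the first nucleosomes of transcribed genes, and is removed by demethylases of the JMJ family. H3 marks all nucleosomes, so the ratio of H3K4me3 to H3 gives the mark per unit of histone. H3K27me3 is the Polycomb mark of repressed regulatory genes. H3K9me2 is the mark of heterochromatin and lies mainly on repeats.

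Leaf H3K4me3 held 2141886 reads, of which 2075647 were nuclear, and leaf H3 held 1679480, of which 1449274 were nuclear. Plastid DNA took 2.49% of H3K4me3 reads and 12.2% of H3 reads, and mitochondrial DNA took 0.602% and 1.54% in the same order. Each value below is the log2 of H3K4me3 over H3, after adding 1 read to each count and dividing by the nuclear reads of the library. Its 95% interval covers counting error only. There was 1 library per antibody, so no replicate error exists and no test between antibodies was run. An interval of the genome was evaluated where it held at least 10 H3 reads. It was called enriched where H3K4me3 was at least 2-fold above H3 and the 95% interval excluded 0, and depleted where it was at least 2-fold below H3 on the same terms. Leaf is a mixture of cell types, so a mark on few cells and a weak mark on many cannot be told apart.

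Protein-coding genes drew the H3K4me3 reads. They held 66.1% of nuclear H3K4me3 reads (95% Wilson interval 66.07 to 66.20) and 47.3% of H3 reads (47.23 to 47.39), over 49.5% of the annotated length. Transposable elements held 11.5% of H3K4me3 reads and 17.8% of H3 reads over 20.5% of the length. Intergenic intervals held 21.0% of H3K4me3 reads and 33.5% of H3 reads over 30.0% of the length. The mark was thus above H3 over genes and below it over both other classes. Pooled over all their intervals, the log2 of H3K4me3 over H3 was 0.48 (0.48 to 0.49) for protein-coding genes, -0.62 (-0.63 to -0.61) for transposable elements and -0.67 (-0.67 to -0.66) for intergenic intervals. Among all classes, 2070 intervals in which H3 reads per kb exceeded 20 times the gene median, here called H3-dense, made up 0.237% of the length and held 17.9% of H3K4me3 and 26.9% of H3 reads. These intervals take up much of the library totals to which gene values are scaled.

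**Figure D1:**
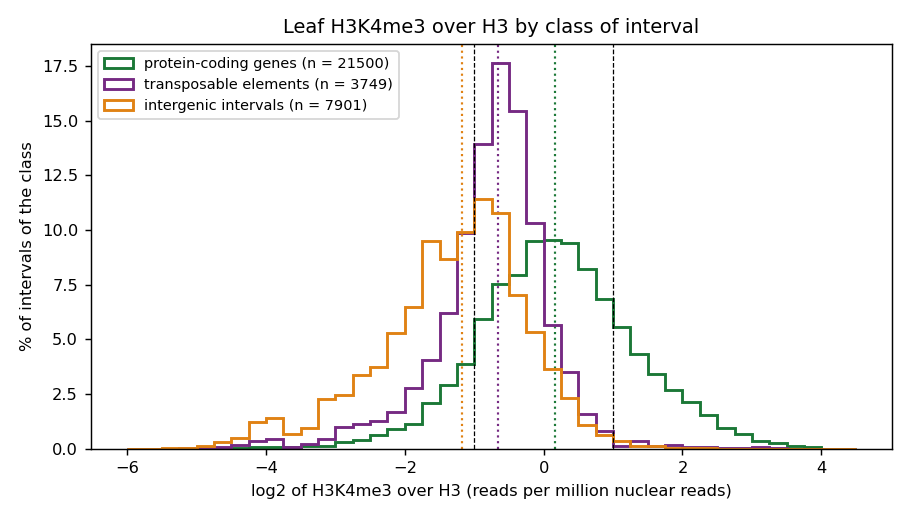
Distribution of log2 of H3K4me3 over H3 in leaf (x axis) as the percent of evaluated intervals of each class (y axis), for protein-coding genes, transposable elements and intergenic intervals. Dotted lines mark the class medians (0.16, -0.66 and -1.17) and dashed lines the 2-fold limits, and the gene distribution sits to the right of both others.

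Of 27213 protein-coding genes, 21500 were evaluated. Their median was 0.16, with quartiles of -0.52 and 0.89, and 5% to 95% of genes lay between -1.62 and 2.13. Enriched genes numbered 4766 (22.2%) and depleted genes 2529 (11.8%), so that 65.3% of called genes were enriched. With the median gene set to 0 in place of the library totals, the split was 54.4% enriched, so the balance of enriched to depleted genes depends on the scaling and the order of genes does not. Enriched genes held 26.9% of all nuclear H3K4me3 reads and 7.48% of H3 reads. Depleted genes held 1.48% of H3K4me3 and 4.38% of H3 reads, and 48 of them had no H3K4me3 read at all. The typical interval of a gene was 0.74 wide on either side on the log2 scale, from a median of 42 H3K4me3 and 23 H3 reads. The 5713 genes under the minimum were short, with a median length of 678 bp, and their pooled value was 0.97.

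Enriched and depleted genes were called from the ratio of H3K4me3 to H3, so a difference in H3K4me3 or H3 follows from the calls. It lay in H3K4me3, while H3 differed little between the classes. The median gene in the enriched class had 23.1 H3K4me3 and 7.22 H3 reads per 1000000 nuclear reads per kb (RPM per kb). In the depleted class it had 2.44 RPM per kb of H3K4me3 and 7.67 of H3, and in the class called neither way 7.27 and 7.06. Polycomb signal ran the other way. Leaf H3K27me3 had a median of 3.65 RPM per kb over enriched genes, 7.30 over depleted genes and 4.07 over the rest. H3K27me3 at 4 times the gene median or more was found at 289 enriched genes (6.06%), 792 depleted genes (31.3%) and 2556 of the rest (18%). H3K9me2 above 5 RPM per kb was found at 1.59% of enriched genes, 7.28% of depleted genes and 3.31% of the rest. A transposable element overlapped 8.33% of enriched genes and 14.2% of depleted genes. Most depleted genes therefore held neither H3K27me3 at that level nor H3K9me2 at that level.

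Ranked by the lower end of the interval among genes with a symbol, the first was PUB26 (AT1G49780), a U-box E3 ubiquitin ligase, with 380 H3K4me3 and 16 H3 reads and a log2 of 3.97 (3.27 to 4.67). PATL1, a patellin with a Sec14 lipid-binding domain, had 402 H3K4me3 and 18 H3 reads (3.89, 3.22 to 4.55). SOS5, a fasciclin-like arabinogalactan protein of the cell wall, had 374 and 18 reads (3.78, 3.12 to 4.45). In raw counts, before scaling to the nuclear reads of each library, these 3 genes thus carried over 20 times as many H3K4me3 as H3 reads.

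The next genes described encode transcription factors. HB34, a zinc-finger homeodomain factor, had 262 H3K4me3 and 11 H3 reads (3.94). BBX15 had 367 and 18 reads (3.76), and COL3 had 381 and 19 reads (3.74). Both belong to the B-box zinc-finger family that includes CONSTANS. ATAF1, a NAC factor, had 297 H3K4me3 and 15 H3 reads (3.70). RAP2.4, an AP2/ERF factor, had 295 and 15 reads (3.69).

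The other 4 encode proteins of other kinds. PIN3, an auxin efflux carrier, had 606 H3K4me3 and 37 H3 reads (3.48, 3.01 to 3.95), the highest H3K4me3 count of the 12. AMT1;1, a high-affinity ammonium transporter, had 513 and 30 reads (3.53). BG_PPAP, a beta-1,3-glucanase that degrades callose at plasmodesmata, had 490 and 27 reads (3.61). NRP1 (AT2G03440), a nodulin-related protein, completed the list with 291 H3K4me3 and 13 H3 reads (3.86). All 12 held between 0 and 10 H3K9me2 reads and between 5 and 41 H3K27me3 reads. The intervals of PATL1, HB34 and NRP1 contain part of a transposable element and that of ATAF1 overlaps another interval, so they share reads with it. Among genes without a symbol, AT4G16490 had 576 H3K4me3 and 22 H3 reads, with a log2 of 4.13 (3.53 to 4.73), the highest value of any evaluated gene.

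**Figure D2:**
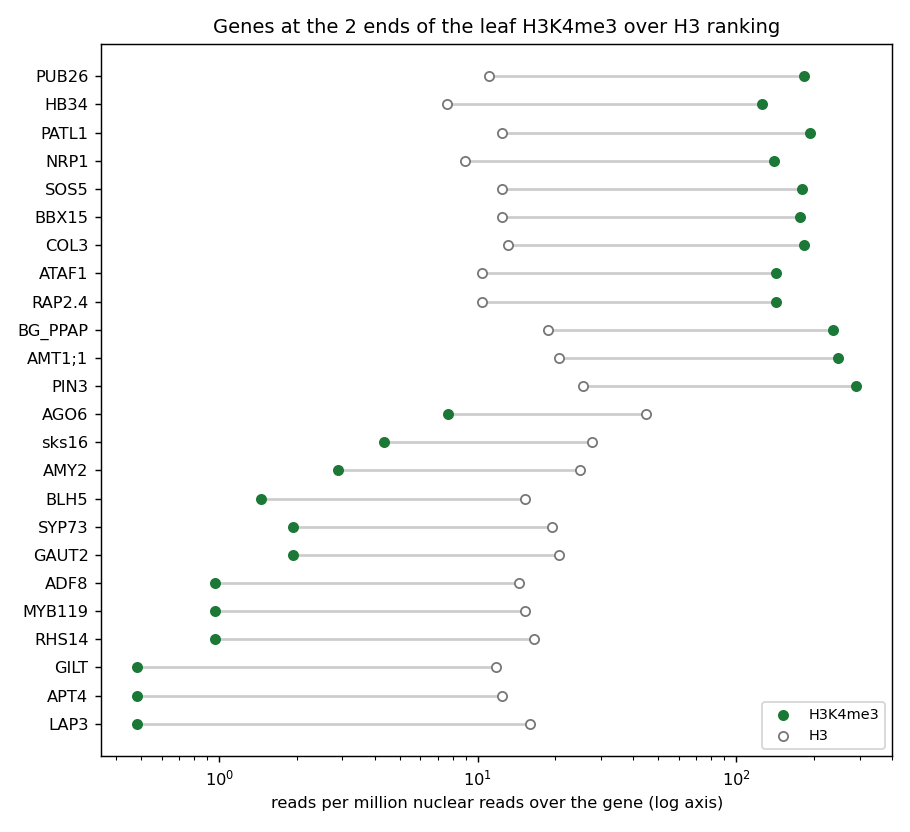
Reads per 1000000 nuclear reads over each gene (log x axis) in leaf H3K4me3 (filled) and leaf H3 (open) for the 12 genes with a symbol at the high end and the 12 at the low end of the ranking. H3K4me3 lies to the right of H3 in the upper 12 (126.2 to 292.0) and to its left in the lower 12 (0.482 to 7.71), while H3 lies between 7.59 and 44.9 in all 24.

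At the other end of the ranking, the 12 genes with a symbol had 1 to 16 H3K4me3 reads and 17 to 65 H3 reads. LAP3, needed for the outer wall of pollen and overlapping another interval, had 1 H3K4me3 and 23 H3 reads and a log2 of -4.10 (-6.18 to -2.02). RHS14, a root hair specific gene, had 2 and 24 reads (-3.58, -5.30 to -1.85). MYB119, a MYB factor of the female gametophyte, had 2 and 22 reads (-3.46, -5.19 to -1.72). These 3 genes differed in Polycomb signal, with 15 H3K27me3 reads over LAP3, 414 over RHS14 and 266 over MYB119.

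AGO6, an Argonaute of RNA-directed DNA methylation, rested on the deepest coverage of the low set, with 16 H3K4me3 and 65 H3 reads (-2.48, -3.24 to -1.71). AMY2, an alpha-amylase, had 6 and 36 reads (-2.92, -4.09 to -1.75). GAUT2, of the galacturonosyltransferase family, had 4 and 30 reads (-3.15). The gene sks16, a relative of the cell expansion protein SKU5, had 9 and 40 reads (-2.55). ADF8, an actin depolymerizing factor, had 2 H3K4me3 and 21 H3 reads (-3.39, -5.13 to -1.65). APT4 (adenine phosphoribosyltransferase) had 1 and 18 reads, GILT 1 and 17, SYP73 (a syntaxin) 4 and 28, and BLH5 (a BEL1-like homeodomain protein) 3 and 22. H3K9me2 over these 12 genes ran from 0 to 13 reads, the highest over APT4, and H3K27me3 from 9 reads over SYP73 to 414 over RHS14. Without a symbol, AT1G29080 and AT1G67150 each had 0 H3K4me3 and 25 H3 reads, and AT3G15910 had 0 and 22. All 3 carried H3K27me3, with 185, 146 and 180 reads.

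The same 24 genes were read in the cell culture, from libraries that the ranking had not used. The culture log2 of H3K4me3 over H3 lay between 1.59 (HB34) and 3.83 (RAP2.4) for the upper 12, and between -2.44 (MYB119) and 0.01 (ADF8) for the lower 12. The 2 sets did not overlap in the culture either, though ADF8 rested on 8 H3K4me3 and 7 H3 reads there, under the minimum. For reference, 28.3% of genes evaluated in both sample types were enriched in the culture and 13.2% were depleted. Of those enriched in leaf, 74.3% were enriched in the culture. Of those depleted in leaf, 35.2% were depleted in the culture. Both shares lay above those over all genes evaluated in both sample types. Enriched calls were also the more common ones there, so the recurrence of high and low calls was not ranked. AGO6 had 54 H3K4me3 and 79 H3 reads there, a log2 of -0.70.

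A separate set of low genes lay in 1 block. Chromosome 2 from 3.2 to 3.6 Mb, the stretch of nuclear genome that resembles the mitochondrial genome, held 68 genes, of which 65 were evaluated. Of these, 46 were depleted (70.8%) and 0 enriched, with a pooled log2 of -1.46 (-1.54 to -1.39). AT2G07739 had 47 H3K4me3 and 255 H3 reads, and AT2G07732 had 49 and 264 reads. The mitochondrial genome itself held 12901 H3K4me3 and 25891 H3 reads. Whether reads of mitochondrial DNA were placed in this block was not tested.

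The ratio differed with gene length. Pooled over all genes of a length class, the log2 of H3K4me3 over H3 was -0.33 up to 0.5 kb, 0.67 from 0.5 to 1 kb, 0.83 from 1 to 2 kb, 0.52 from 2 to 4 kb and -0.02 above 4 kb. Per kb, evaluated genes of 1 to 2 kb had a median of 9.25 RPM of H3K4me3 and 7.44 of H3, and genes above 4 kb had 6.25 and 6.71. Per gene, the median H3K4me3 was 14.5 RPM at 1 to 2 kb and 34.7 RPM above 4 kb. Long genes thus held more of the mark per gene and less per kb. Enriched genes made up 29.0% of those of 1 to 2 kb and 6.44% of those above 4 kb. The files give 1 count per gene and no strand, so the position of the mark within a gene was not resolved. In the shortest class 50 of 1902 genes (2.63%) reached 10 H3 reads, which selects genes of high H3, and their median of -1.46 describes those genes alone.

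**Figure D3:**
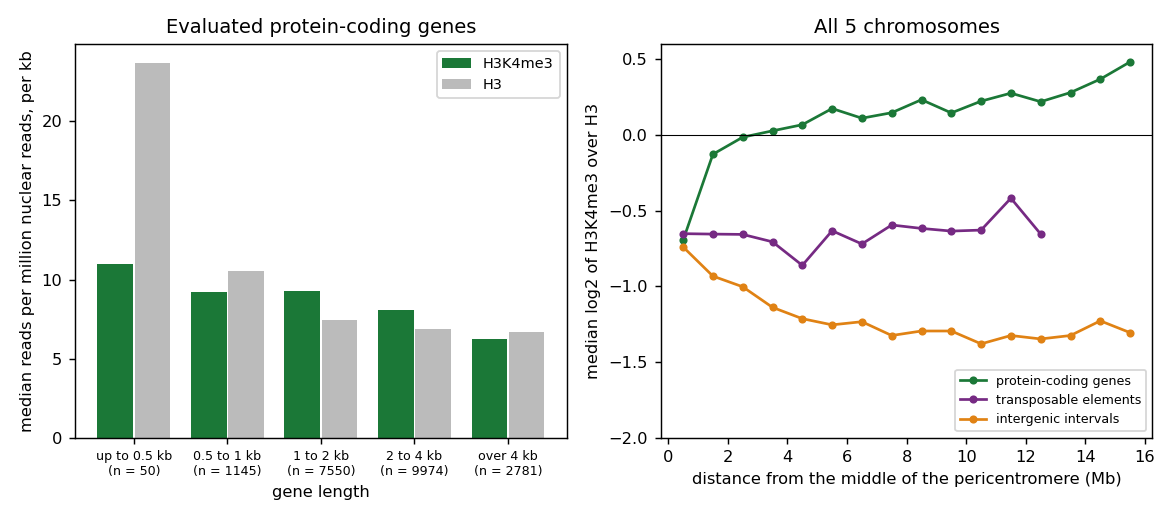
Left, median H3K4me3 and H3 in reads per 1000000 nuclear reads per kb over evaluated protein-coding genes in 5 length classes. Right, median log2 of H3K4me3 over H3 (y axis) by distance from the middle of the pericentromere in 1 Mb steps (x axis, Mb) for genes, transposable elements and intergenic intervals, where a step holds at least 20 evaluated intervals. H3K4me3 per kb is lowest in genes above 4 kb (6.25), and gene medians lie between -0.70 next to the middle and 0.48 in the farthest step.

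Functional groups of genes were compared through 17 lists, of which 328 members were evaluated. Each list is given by its counts and its median beside all protein-coding genes (22.2% enriched, 11.8% depleted, median 0.16), with no test of the list. With library totals that leave out H3-dense intervals, enriched members numbered 0 in the DNA methylation and seed storage lists and 3 each in the clock and ribosomal lists, so the weaker calls there rest on the scaling.

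Photosynthesis genes, the markers of leaf tissue, stood highest. Of 52 genes of the light-harvesting complexes, photosystems, electron transport and Calvin cycle, 43 were evaluated, 42 were enriched and 0 were depleted. The median log2 was 2.57, and the median member had 58.2 RPM per kb of H3K4me3 and 8.19 of H3. LHCB3 and LHCB2.2, antenna proteins of photosystem II, had 235 H3K4me3 and 11 H3 reads (3.78, 2.94 to 4.62) and 222 and 12 reads (3.58, 2.78 to 4.39). RCA, Rubisco activase, had 361 and 40 reads (2.62, 2.16 to 3.09). All 3 lay far above the median gene.

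The 9 members under the minimum were short genes with few H3 reads and many H3K4me3 reads. LHCB6 had 311 H3K4me3 and 8 H3 reads, RBCS1A, a small subunit of Rubisco, had 193 and 9, and PSAD-2 of photosystem I had 120 and 6. The lowest enriched member was PETC, the Rieske protein of the cytochrome b6f complex, with 46 H3K4me3 and 14 H3 reads (1.13, 0.29 to 1.97). FNR2, a leaf ferredoxin-NADP reductase, was the exception at 42 and 26 reads (0.15, -0.54 to 0.85). Its paralog FNR1 had 150 H3K4me3 and 34 H3 reads (1.59). H3K27me3 over the list had a median of 4.18 RPM per kb, close to the 4.22 of all genes.

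**Figure D4:**
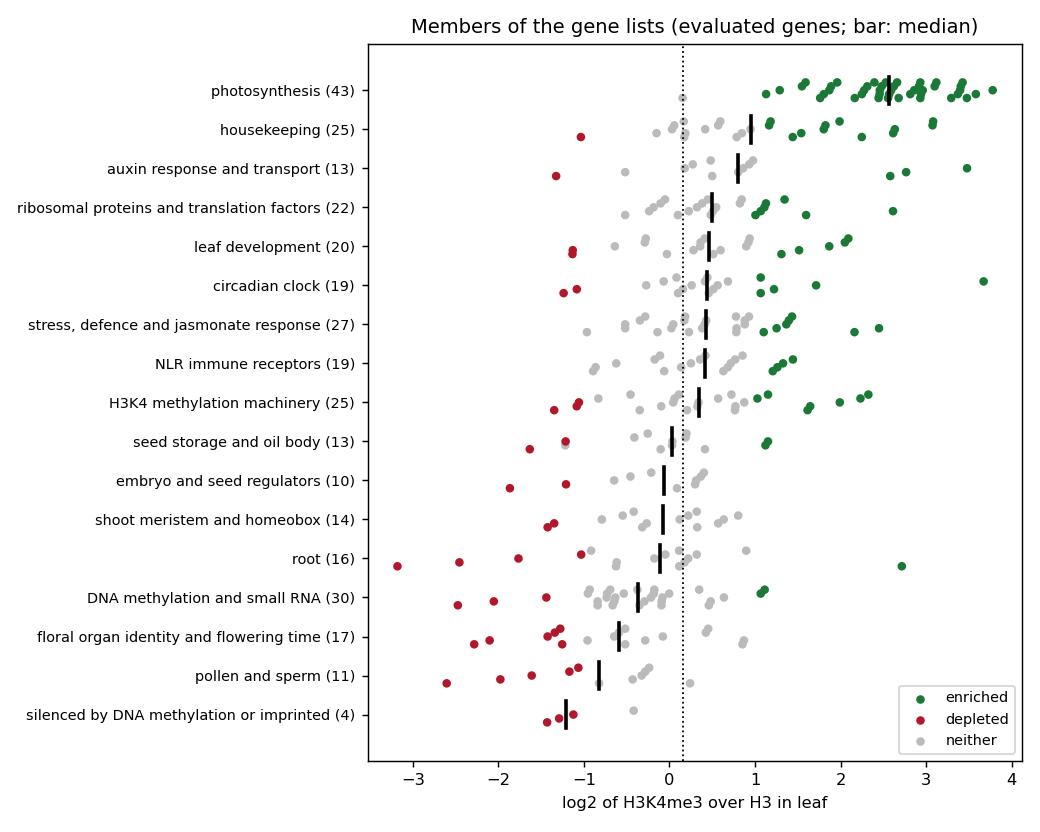
Log2 of H3K4me3 over H3 in leaf (x axis) for each evaluated member of the 17 gene lists, coloured by call, with a bar at the median of the list and a dotted line at the median of all evaluated genes (0.16). The photosynthesis list is centred on 2.57 with all but 1 member enriched, and the lists of pollen and of silenced or imprinted genes lie lowest (medians of -0.82 and -1.21).

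Widely expressed genes came next, with large differences among themselves. Of 25 housekeeping genes, 12 were enriched and 1 was depleted, with a median of 0.95. UBQ10, a polyubiquitin gene, had 545 H3K4me3 and 44 H3 reads (3.08, 2.64 to 3.52), and ROC5, a cyclophilin, had 156 and 12 reads (3.08). ACT8, an actin, had 48 and 37 reads (-0.15). PP2AA3, a scaffold subunit of protein phosphatase 2A used as a standard in expression work, was the depleted one, with 43 H3K4me3 and 62 H3 reads over 4336 bp (-1.04, -1.59 to -0.48).

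Ribosomal protein and translation factor genes were more even. Of 22 evaluated, 7 were enriched and 0 depleted, with a median of 0.50. PGY2, a ribosomal protein of the large subunit, had 148 H3K4me3 and 16 H3 reads (2.61, 1.89 to 3.34), and EIF4E, the cap-binding factor, had 51 and 11 reads (1.6). RPL23AB was lowest with 20 and 20 reads (-0.52), and ELF5A-1 had 16 and 13 (-0.24).

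Auxin genes differed widely. Of 13 evaluated, 3 were enriched, and these were the efflux carriers PIN3 and PIN7 and the receptor TIR1. TIR1 had 311 H3K4me3 and 31 H3 reads (2.77, 2.24 to 3.29), and PIN7 had 239 and 27 reads (2.58, 2.02 to 3.15). Of 8 Aux/IAA repressor genes, 5 were evaluated and 0 of these were enriched. IAA2, under the minimum, had 42 H3K4me3 and 6 H3 reads (2.1, 0.95 to 3.25). IAA29 was depleted, with 7 H3K4me3 and 13 H3 reads (-1.33, -2.58 to -0.07), and SHY2 had 16 and 16 reads (-0.52). The list median was 0.80.

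Among clock genes, 5 of 19 were enriched and 2 depleted (median 0.44). CHE, a TCP factor that represses CCA1, had 200 H3K4me3 and 10 H3 reads (3.67, 2.80 to 4.55), and LUX of the evening complex had 140 and 29 (1.71). The morning factors CCA1 and LHY had 77 and 25 reads (1.07, 0.43 to 1.71) and 71 and 41 reads (0.26, -0.29 to 0.81). The depleted members were TOC1, with 24 H3K4me3 and 36 H3 reads (-1.08, -1.82 to -0.35), and PRR3, with 16 and 27 (-1.24, -2.11 to -0.37), which are both pseudo-response regulators. PRR9 was the only enriched pseudo-response regulator (74 and 24 reads, 1.07). The hour of harvest is not given in the labels.

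Stress, defence and jasmonate genes had 7 of 27 evaluated members enriched and 0 depleted (median 0.43). MYC2, the central jasmonate factor, had 226 H3K4me3 and 28 H3 reads (2.45, 1.89 to 3.01), and ERD10, a dehydrin, had 76 and 11 (2.16). The lowest evaluated members were PR1, a defence gene, with 10 and 14 reads (-0.97, -2.09 to 0.16), and RD29B, a desiccation gene, with 32 and 32 (-0.52). Of the other PR genes, PR2 had 19 and 16 reads (-0.28) and PR5 had 30 and 20 (0.04), and none of these 4 was called either way. PR1 held 261 H3K27me3 reads and MYC2 held 7. NLR immune receptor genes had 4 of 19 enriched and 0 depleted (median 0.42). SNC1 had 147 H3K4me3 and 37 H3 reads (1.44, 0.93 to 1.96). The lowest were WRR4, with 36 and 47 reads (-0.89), and RRS1, with 58 and 74 (-0.86). These families hold near-identical copies in clusters, so reads may be split between members.

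Leaf development genes had 5 of 20 enriched and 2 depleted (median 0.46). The TCP factors that limit leaf growth led, with 237 H3K4me3 and 38 H3 reads over TCP4 (2.09, 1.6 to 2.58) and 177 and 29 over TCP3 (2.05). KAN2 and KAN, which specify the lower leaf side, were enriched and also carried Polycomb signal. KAN2 had 85 H3K4me3, 20 H3 and 328 H3K27me3 reads (1.52, 0.83 to 2.2), and KAN had 109, 30 and 264 (1.31, 0.73 to 1.88). Whether both marks lie in the same cells cannot be told apart from a mixture of cells. KAN2 and KAN each overlap another interval, so reads of either mark may be shared with it. YAB5 and YAB2, also of the lower side, were depleted, with 16 and 25 reads (-1.13) and 14 and 22 reads (-1.13). Their intervals overlap others as well.

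Of 25 genes listed for H3K4 methylation, 7 were enriched (28.0%) and 3 depleted (12%), shares near those of genes of all lengths (median 0.34). The list holds writers and erasers of the mark and other genes, among them the enriched PHP, VIP3, VIP5 and HUB1. Its median length was 5194 bp. Among all evaluated genes above 4 kb, 6.44% were enriched and 7.70% depleted (median -0.10). LDL1, a demethylase of the lower methylation states of the same lysine, had 200 H3K4me3 and 27 H3 reads (2.33, 1.76 to 2.90), and PHP, a subunit of the Paf1 complex, had 100 and 14 (2.23). Of the core COMPASS subunits, WDR5a had 111 and 24 reads (1.65) and TRO had 130 and 22 (1.99), and both were enriched. RBL, the third, had 83 and 31 reads (0.87, 0.29 to 1.46) and was called neither way. The methyltransferase ATX1 was depleted, with 51 H3K4me3 and 76 H3 reads (-1.08, -1.59 to -0.58), as was ATXR7 with 43 and 63 (-1.06). ATXR3, the enzyme that sets most H3K4me3, had 175 and 117 reads over 11181 bp (0.06, -0.28 to 0.40). JMJ14, an H3K4 demethylase, was lowest with 35 and 63 reads (-1.35, -1.94 to -0.76). JMJ15 had 4997 H3K4me3 and 6211 H3 reads, which makes it H3-dense at 506 and 901 RPM per kb, and it overlaps another interval.

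Genes of DNA methylation and small RNA pathways, the topic of the series title, lay below the median gene. Of 30 evaluated, 2 were enriched and 3 depleted, with a median of -0.36. These are long genes, with a median of 6112 bp against 2238 bp over all evaluated genes. Set against genes of their own length class, they lay at -0.32, and against all genes at -0.52. SUVH2 and SUVH9, which recruit RNA polymerase V to methylated DNA, were the enriched members, with 126 H3K4me3 and 40 H3 reads (1.11, 0.60 to 1.62) and 140 and 46 reads (1.07). The depleted members were DML3, a DNA demethylase, and the Argonautes AGO6 and AGO4. SUVH2, SUVH9 and DML3 each overlap another interval and share reads with it. AGO4 had 19 and 57 reads (-2.05, -2.79 to -1.32), with 46 H3K27me3 reads. AGO1, the main Argonaute of the miRNA pathway, had 116 and 105 reads (-0.38, -0.76 to 0.00). The maintenance methyltransferase MET1 had 75 and 59 (-0.18), and the remodeler DDM1 had 39 and 27 (0.00).

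Of 17 evaluated genes of floral organ identity and flowering time, 0 were enriched and 6 depleted (median -0.59). AP3 and AG, which specify petals and stamens and stamens and carpels, had 4 H3K4me3 and 16 H3 reads (-2.28, -3.72 to -0.85) and 7 and 23 reads (-2.10, -3.26 to -0.95). The highest members were AGL20 (SOC1), a floral integrator, with 54 and 20 reads (0.87, 0.15 to 1.6), and SEP3 with 43 and 16 (0.85). FLC, the vernalization gene, had 42 and 46 reads (-0.65) with 526 H3K27me3 reads. The list's median H3K27me3 was 26.4 RPM per kb, against 4.22 over all genes.

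Shoot meristem and homeobox genes had 0 of 14 enriched and 2 depleted (median -0.07), with a median H3K27me3 of 37.0 RPM per kb. CUC1 and CUC3, boundary genes, were highest with 44 H3K4me3 and 17 H3 reads (0.80) and 39 and 17 (0.63). CUC2, the third boundary gene, was lowest with 7 and 14 reads (-1.43, -2.66 to -0.19) and 375 H3K27me3 reads. WOX8 was also depleted, with 8 and 15 reads (-1.35). WUS and STM, which maintain stem cells, were called neither way, with 24 and 13 reads (0.32) and 23 and 28 reads (-0.79).

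Embryo and seed regulators had 0 of 10 enriched and 2 depleted (median -0.06, H3K27me3 40.7 RPM per kb). LEC1 had 52 H3K4me3 and 27 H3 reads (0.40, -0.26 to 1.06) and PLT2 had 47 and 25 (0.37). LEC2 and AGL15 were depleted, with 10 and 27 reads (-1.87, -2.87 to -0.86) and 12 and 20 reads (-1.21). Seed storage and oil body genes had the highest median H3K27me3 of the lists, 100.5 RPM per kb, beside an H3K4me3 median of 0.03 (-0.13 with the median gene set to 0), with 2 of 13 enriched and 2 depleted. SESA3, a 2S albumin, had 34 H3K4me3 and 10 H3 reads (1.15, 0.17 to 2.13) with 321 H3K27me3 reads, and OLEO4, an oleosin, had 52 and 16 reads (1.12). SESA5, another albumin, was depleted with 5 and 12 (-1.63, -3.03 to -0.24), as was CRA1, a cruciferin, with 28 and 46 (-1.21). SESA4 had 7 and 12 reads (-1.22) and was called neither way. The 2S albumin genes lie next to each other in part and are similar in sequence, so their counts are uncertain.

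Root genes had 1 of 16 enriched and 4 depleted (median -0.11, H3K27me3 41.9 RPM per kb). The enriched one was SCR, known from the root endodermis and also from shoot tissue, with 225 H3K4me3 and 23 H3 reads (2.72, 2.11 to 3.32) and 25 H3K27me3 reads. SHR, which acts above SCR, had 71 and 26 reads (0.90, 0.26 to 1.53) and 731 H3K27me3 reads. CASP5, of the Casparian strip, had 2 and 18 reads (-3.18, -4.94 to -1.42), and EXPA7, a root hair expansin, had 5 and 22 (-2.46, -3.75 to -1.16). The root list thus reached past the 5% to 95% range of all genes at both ends.

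Pollen and sperm genes had 0 of 11 enriched and 5 depleted (median -0.82). TIP1;3, an aquaporin of the pollen vegetative cell, had 3 H3K4me3 and 16 H3 reads (-2.61, -4.18 to -1.03), and DUO1, the MYB factor of male germ cells, had 3 and 10 (-1.98, -3.63 to -0.33). DUO1 held 2 H3K27me3 reads and TIP1;3 held 48. The highest were TIP5;1, with 21 and 12 reads (0.24), and MYB120, with 33 and 27 (-0.24). Of 4 evaluated genes silenced by DNA methylation or imprinted, 0 were enriched and 3 depleted (median -1.21). MEA and FWA had 16 and 31 reads (-1.43, -2.28 to -0.58) and 23 and 40 reads (-1.29, -2.02 to -0.56), and FIS2 had 22 and 34 (-1.12). SDC was called neither way, with 14 and 13 reads (-0.42).

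Non-coding genes were mostly too short for a value. Of 177 miRNA genes, 6 were evaluated, of which 2 were enriched (33.3%) and 1 depleted (16.7%). MIR398c, which gives a miRNA against copper superoxide dismutase mRNA, had 239 H3K4me3 and 35 H3 reads over an interval of 2387 bp that overlaps another (2.22, 1.71 to 2.72). MIR156c, a source of the juvenile-phase miR156, had 81 and 26 reads (1.08, 0.46 to 1.71). MIR163 had 5 and 11 reads (-1.52, -2.93 to -0.10). All 177 together held 736 H3K4me3 and 376 H3 reads, a pooled log2 of 0.45 (0.27 to 0.63). MIR398c alone gave 239 of these H3K4me3 reads and 35 of these H3 reads. The pooled value thus rests in large part on 1 interval that shares reads with another. The 4 rRNA genes lay slightly below 0, between -0.41 for AT2G01020 (1706 and 1581 reads) and -0.17 for AT3G41768 (11834 and 9280 reads).

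Transposable elements were rarely enriched. Of 31189, 3749 were evaluated, 43 were enriched (1.15%) and 999 depleted (26.6%), with a median of -0.66. By superfamily, pooled over all elements, DNA transposons of the En-Spm type had -0.48, LINE/L1 -0.50, LTR/Copia -0.52, LTR/Gypsy -0.57 and MuDR -0.65. Helitrons, rolling-circle elements, were lower at -1.09 (-1.12 to -1.07), from 23424 H3K4me3 and 34859 H3 reads. Single elements weigh on these sums, and H3-dense ones were kept in them. In the Helitron families ATREP9 and ATREP1, 1 element held 97.4% of 5698 and 88.9% of 2890 H3K4me3 reads. In the MuDR families ATMUNX1 and ATDNA2T9C, 1 element held 99.0% of 6578 and 93.6% of 2733. The lowest superfamilies were small, Mariner with 20 and 67 reads (-2.26) and Tc1 with 11 and 53 (-2.79). Elements that overlap a gene had a pooled value of -0.38, those under 500 bp from a gene -0.79 and those 500 bp or more away -0.61. In the arms alone the last 2 had -0.80 each. The minimum of 10 H3 reads keeps short intervals only where H3 is high, so counts and medians of elements and intergenic intervals describe those evaluated, and pooled values describe all. Of the 43 enriched elements, 18 overlap a gene and share its reads (6.67% of 270 evaluated), 7 lie under 500 bp away (1.73% of 405) and 18 lie farther (0.586% of 3074).

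Among 214 families of at least 10 elements and 100 H3 reads, 14 had a pooled log2 above 0. SADHU, a family of non-autonomous retroposons, was highest at 2.01 (1.79 to 2.24), from 1080 H3K4me3 and 187 H3 reads over 16 elements. ATCOPIA5 had 0.96, with 1 element holding 60.5% of its H3K4me3 reads, and ATENSPM1A had 0.93, with 42 of 77 elements overlapping a gene. In both, the median of the evaluated elements was below 0 (-0.19 and -0.17). ATDNA1T9A had 0.62 and ATCOPIA37 had 0.54. The lowest families were ATREP10C, with 38 H3K4me3 and 137 H3 reads (-2.37, -2.89 to -1.85), TNAT2A (-2.22), ATREP7 (-1.84), ATREP2 (-1.84) and ATREP2A (-1.76). All but TNAT2A of these 5 are Helitrons.

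SADHU elements ranged from a log2 of 3.46 to -1.26. Of 11 evaluated, 7 were enriched and 1 depleted. AT2TE16945 had 188 H3K4me3, 11 H3 and 0 H3K9me2 reads (3.46, 2.62 to 4.30), and it lies inside an ATHAT10 element, AT2TE16940, which shares its reads. AT1TE41790 on chromosome 1 from 12840229 to 12841118 (TAIR10), 10879 bp from the nearest gene, had 157, 11 and 0 reads (3.2, 2.35 to 4.05). AT3TE18450 and AT1TE02770, which overlap genes, had 169, 19 and 0 reads (2.57) and 131, 16 and 0 reads (2.44). At the other end AT3TE63935 had 8 H3K4me3, 14 H3 and 43 H3K9me2 reads (-1.26, -2.45 to -0.06). The 7 copies of highest ratio, 1 of them under the minimum, held 0 to 3 H3K9me2 reads, and the 7 of lowest ratio held 9 to 43. Of the latter, AT3TE60310, AT5TE36235, AT1TE56235 and AT3TE52630 were under the minimum, with 3 to 7 H3 reads. The other 2 lay between in ratio. No gap set them apart from the low copies, as AT3TE60310 had 0.87 and AT4TE03410 had 0.88. AT5TE38720, which was enriched with 64 H3K4me3 and 16 H3 reads (1.42), held 19 H3K9me2 reads, and AT4TE03410 held 10. AT3TE88640 and AT4TE03410 stood apart in H3K27me3, with 225 and 281 reads. Copies of 1 family resemble each other, and how reads that match several places were treated is not given in the sources used here.

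**Figure D5:**
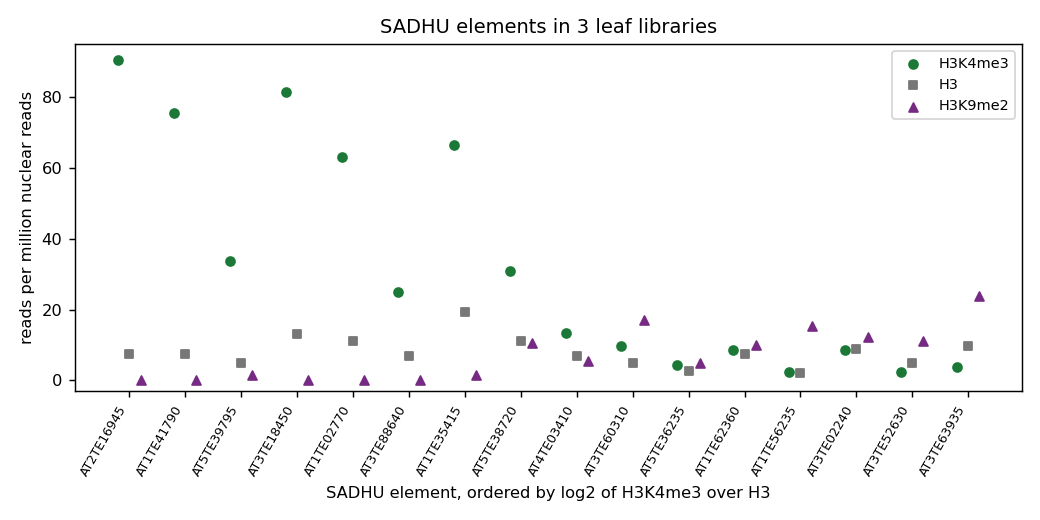
Reads per 1000000 nuclear reads (y axis) in leaf H3K4me3, H3 and H3K9me2 over the 16 SADHU elements (x axis), ordered by log2 of H3K4me3 over H3. The copies at the left have high H3K4me3 and 0 to 3 H3K9me2 reads, and in the 7 copies at the right H3K9me2 lies above H3K4me3.

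Intergenic intervals had the lowest ratio to H3. By H3K4me3 per kb without H3, transposable elements were lowest, at -0.84 against the median gene, with -0.53 for intergenic intervals. The 1965 H3-dense intergenic intervals, 182 kb in all, held 222881 of the 436865 intergenic H3K4me3 reads. With H3-dense intervals left out, intergenic intervals held 213984 H3K4me3 reads over 36340 kb and elements 184005 over 24858 kb. Intergenic intervals were then the lower of these per kb. Of 51387 intergenic intervals, 7901 were evaluated, 58 were enriched (0.734%) and 3987 depleted (50.5%), with a median of -1.17. Intervals between a pair of genes had a pooled log2 of -0.67, those between a gene and an element -0.60 and those between elements -0.73. Short intervals between enriched genes had values above 0. Up to 0.5 kb, the 339 intervals with an enriched gene on both sides held 1182 H3K4me3 and 581 H3 reads, a pooled log2 of 0.51 (0.36 to 0.65). With 1 enriched neighbour the value was -0.22 (-0.26 to -0.18), and 0.06 (0.01 to 0.12) without H3-dense intervals. With none it was -0.32 (-0.35 to -0.29), and -0.31 without them. In these groups, at every interval length, a neighbouring gene under the read minimum was counted as not enriched. The 5713 protein-coding genes under that minimum had a pooled log2 of 0.97. The groups with 1 and with none may thus hold intervals beside genes of high ratio that were not evaluated. Above 2 kb the pooled values without H3-dense intervals were -1.05 with both neighbours enriched, -1.10 with 1 and -1.03 with none, and the last was -0.75 with them. The medians above 2 kb were -1.26, -1.28 and -1.20 in the same order. A read that spans a boundary can count in both neighbours, so a gene and its short flank share some reads.

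Along the chromosomes, genes of the pericentromeres had less H3K4me3 over H3 than genes of the arms. The median was -0.13 over 1924 pericentromeric genes and 0.19 over 19576 arm genes, with 15.7% and 22.8% enriched and 17.8% and 11.2% depleted. The direction of the medians held on each of the 5 chromosomes, with pooled differences from -0.14 on chromosome 4 to -0.77 on chromosome 2, the chromosome of the mitochondrial-like block. Without the genes of that block the pericentromeric median was 0.09 on chromosome 2, close to the 0.13 of its arms. Over all chromosomes it was then -0.09. Over all chromosomes the pooled difference was -0.57 (-0.58 to -0.55), and -0.34 without H3-dense intervals. From H3K4me3 reads per kb alone, without H3, the pooled difference was 0.02. The median gene had 6.64 RPM per kb of H3K4me3 in pericentromeres and 8.20 in arms, with 7.11 and 7.16 of H3, so the sign was lost in the pooled sum and not in the medians. Gene medians lay between -0.70 within 1 Mb of the middle of the pericentromere and 0.48 at 15 to 16 Mb. In the innermost step 65 of 262 genes belong to the block on chromosome 2, and without them its median was -0.28, with 38 of 197 genes depleted (19.3%). Transposable elements differed little between pericentromeres (-0.60) and arms (-0.68), and intergenic intervals had -0.60 and -0.73. In the innermost step elements and intergenic intervals had medians of -0.65 and -0.74.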

How the data were processed

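The authors' deposited files hold raw counts, whole numbers of reads per interval of the TAIR10 genome, with no strand. Bowtie2 and bedtools are named in the submitters' processing notes, without versions. Handling of duplicates is not given in the sources used here. 12295 nuclear intervals overlap another, and such intervals share reads. Symbols came from RefSeq, which matched 26726 protein-coding genes. The TAIR10 coordinates are those of the files.

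Counts were scaled to nuclear reads after a pseudocount of 1, and the standard error came from both counts. PCR duplicates are not independent molecules, so intervals cover counting error only. Pooled values are ratios of summed counts over all intervals, without the filter. Pericentromeres spanned, in Mb, 12 to 18 (chromosome 1), 1 to 7 (chromosome 2), 11 to 17 (chromosome 3), 1 to 6 (chromosome 4) and 9 to 15 (chromosome 5).

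Genes named are the 12 at each end with a symbol, the 2 highest and 2 lowest of each list, and the extremes of non-coding genes and of element families. Further examples, the chromosome 2 block and the comparison of lists with genes of their own length class, and values without that block or without H3-dense intervals, were chosen after the values were seen. The members and lists were chosen with earlier results of these data known. Of 359 list entries, 355 matched RefSeq and 4, all ribosomal, were dropped. The code was tested on simulated counts. Python 3.11.15, numpy 2.4.6, pandas 2.3.3 and scipy 1.17.1 were used. Of the genes this naming rule covers, 1 is not reported here.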

Additional observations from a re-analysis of the deposited data

How the results depend on the processing

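No paired analysis was possible because each antibody has 1 library in leaf and no test was run. The 24 genes at the ends of the ranking kept their calls in 185 of 185 values under the alternatives. A gene that an alternative left out or did not evaluate gave no value there. These genes were picked for the most extreme intervals, so their kept calls say little about genes nearer the limits. Of 153 list medians, 136 stayed within counting error. Setting the median gene to 0 gave a gene median of 0.00, 54.4% of called genes enriched, and pooled values of -0.78 for elements and -0.83 for intergenic intervals. Library totals without H3-dense intervals gave -0.0065, 54.0%, -0.79 and -0.84 in the same order. A 3-fold limit left 2345 enriched and 1141 depleted genes, 22 and 452 elements and 16 enriched intergenic intervals. A pseudocount of 5 gave a gene median of 0.0804 and 32 enriched intergenic intervals. With no filter the gene median was 0.12, with 244 enriched and 1972 depleted elements and 529 enriched and 6501 depleted intergenic intervals. A minimum of 20 reads over both libraries gave a gene median of 0.29, 74.1% of called genes enriched, 179 enriched elements (pooled -0.54), 329 enriched and 2265 depleted intergenic intervals (pooled -0.59), a difference of 1.93 between short intervals with both and with no enriched neighbours (0.83 as reported) and of -0.90 between genes above 4 kb and of 1 to 2 kb (-0.84 as reported). That minimum counts H3K4me3 reads too, so it keeps intervals that are high in the mark. In the reported difference between short intervals, neighbouring genes that were not evaluated were counted as not enriched. H3K4me3 per kb without H3 gave 0.00, 53.5%, 199 enriched elements (-0.84), 332 enriched intergenic intervals (-0.53), 0.32 for the short intervals, -0.90 for length, and 0.0178 for pericentromere minus arm, a reversed sign whose cause was not tested. Intervals that overlap no other gave 20 enriched elements (-0.67), a pericentromere difference of -0.64 and a gene share 19.7 percentage points higher in H3K4me3 than in H3 (18.8 as reported). Deciles of length gave -0.77 for length, and pericentromeres wider by 1 Mb on each side gave -0.41. Leaving out chromosome 2 from 3.2 to 3.6 Mb, chosen after seeing the data, left 4766 enriched and 2483 depleted genes and a pericentromere difference of -0.52. The orientation of flanking genes and promoter motifs were not run, since strand and promoter sequence were not used here. The depth limits a median gene to an interval of 0.74 on either side, and short genes, elements and miRNA genes to pooled values.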
